A study of Mus musculus with 36 samples.

Results

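The 9 genes described here, Slc17a7, Tbr1, Neurod2, Neurod6, Nrn1, Nptx1, Slc30a3, Rorb and Prdm8, are markers of the excitatory neurons of the cerebral cortex, and they were followed in RNA that was taken from the striatum. They were chosen by name with earlier results of these data known, so their counts against all probe sets are descriptions of a list that was not chosen independently. Every probe set that the platform annotation assigns to one of them was taken, which gave 14 of the 45101 probe sets of the Affymetrix mouse genome array that was used. Of these 14, 13 had a log2 intensity over 6.64 on at least 9 of 36 arrays and were tested among the 27212 probe sets that met this criterion. The probe set that did not, Neurod2 1444362_at, stayed under the level on every array and lay at the lowest intensity of the table, 6.69, on 30 of 36.

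There were 12 groups of 3 arrays. Chronic morphine, acute morphine and saline were each given to mice of SWR/J, DBA/2J, C57BL/6J and 129P3/J, which are inbred strains. Animals were males of 8 to 10 weeks, and the striatum was the rostral caudate/putamen together with the nucleus accumbens. Chronic groups had 3 daily injections of morphine for 4 days, at 10 mg/kg first, then 20 mg/kg on the next day and 40 mg/kg thereafter, and a last 40 mg/kg followed on day 5. Acute groups received saline for 4 days and 20 mg/kg on day 5, and saline groups received saline throughout. The tissue was collected 4 h after the injection of that day. Each array held RNA pooled from 3 of the 9 animals of its group, so p-values measure the spread between pools. Precision is limited by how few arrays there are in a group. Values are signal intensities on a linear scale, or log2 of them where stated. In such bulk tissue, fewer cells of a type and less RNA per cell cannot be told apart.

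Excitatory neurons of the cortex release glutamate and send axons into the striatum, while their cell bodies, which hold most of their messenger RNA, lie outside it. The striatum itself consists mainly of GABAergic medium spiny neurons. Slc17a7 encodes the vesicular glutamate transporter VGLUT1, and Slc30a3 encodes the transporter ZnT3, which loads zinc into synaptic vesicles of glutamatergic neurons. Tbr1 is a T-box transcription factor of deep cortical layers, Neurod2 and Neurod6 are basic helix-loop-helix factors of cortical pyramidal neurons, Rorb is a nuclear receptor best known from the middle cortical layers and Prdm8 is a transcriptional repressor of the PR domain family. Nrn1 (neuritin) is a membrane-anchored protein and Nptx1 (neuronal pentraxin 1) a secreted one, and both act at synapses.

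The tissue carried the RNA of the labelled structure. Of 19 medium spiny neuron genes, 17 were measured above the level by a probe set with a single gene symbol. The most abundant were Penk, Adcy5, Pde1b and Tac1 (enkephalin precursor, adenylyl cyclase 5, a phosphodiesterase and the substance P precursor), and the summed level of the list, as its mean log2 intensity, was 10.66 to 10.92 on chronic, 10.61 to 10.91 on acute and 10.81 to 11.05 on saline arrays. Array medians lay between 119 and 133, and pairs of arrays correlated at r = 0.94 to 0.99 over all probe sets other than controls. On 129P3/J saline replicate 3 and DBA/2J saline replicate 3 the poly-A spike controls lay at -3.53 and -3.43 log2 units relative to the mean of all arrays. The difference between the Gapdh probe sets of the 3′ and 5′ ends was highest, at 0.72 log2 units, on C57BL/6J saline replicate 1. With each of these arrays left out in turn, the number of cortical marker probe sets called between chronic morphine and saline was 8, 8 and 7, against 7 on all arrays. Among all detected probe sets, the 36 fits that each left out 1 array gave 714 to 2790 calls in this comparison.

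NeuroD factors bind E-boxes and Tbr1 binds T-box elements. The promoters of the markers were searched for the E-box CAGATG, the E-box CATATG, the E-box CAGCTG and the T-box element TCACACCT on both strands. Whether these motifs have a part in the variation of the markers between arrays was not tested. No motif overlapped another. The promoter windows, each around an annotated start, were taken from RefSeq on GRCm38.p6, and 9 of them belonged to 7 of the genes. The 3 promoters that held a match are shown because they carry the only matches, with the motifs in capitals.
Neurod2 (chr11:98329596-98329895, minus strand): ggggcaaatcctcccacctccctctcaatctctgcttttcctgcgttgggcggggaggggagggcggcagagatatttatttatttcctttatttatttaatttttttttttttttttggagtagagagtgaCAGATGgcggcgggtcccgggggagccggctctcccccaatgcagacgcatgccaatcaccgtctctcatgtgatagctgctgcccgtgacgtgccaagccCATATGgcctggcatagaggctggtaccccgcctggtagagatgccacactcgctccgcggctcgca
Prdm8 (chr5:98180619-98180918, plus strand): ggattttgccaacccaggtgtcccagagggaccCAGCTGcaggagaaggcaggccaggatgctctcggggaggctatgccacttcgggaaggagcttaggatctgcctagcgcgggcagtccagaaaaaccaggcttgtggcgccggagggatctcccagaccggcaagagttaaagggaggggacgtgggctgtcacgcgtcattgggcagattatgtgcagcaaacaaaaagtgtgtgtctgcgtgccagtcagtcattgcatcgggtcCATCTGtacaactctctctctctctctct
Slc30a3 (chr5:31093478-31093777, minus strand): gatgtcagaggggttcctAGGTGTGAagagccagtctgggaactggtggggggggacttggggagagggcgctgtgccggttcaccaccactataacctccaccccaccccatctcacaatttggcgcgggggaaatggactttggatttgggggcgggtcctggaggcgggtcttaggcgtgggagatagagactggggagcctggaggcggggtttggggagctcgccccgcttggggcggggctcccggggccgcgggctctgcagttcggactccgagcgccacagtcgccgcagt
The Neurod2 promoter held CAGATG and CATATG, the Prdm8 promoter held CAGCTG and, on the reverse strand, CAGATG, and the promoter of the downstream Slc30a3 start held TCACACCT on the reverse strand. CAGATG stood in 17.2% of all 32851 mouse promoters of this length, CAGCTG in 16.3%, CATATG in 3.91% and TCACACCT in 1.28%. The promoters of Slc17a7, Tbr1, Neurod6, Rorb and the other Slc30a3 start held no match in this window.

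Several of the cortical markers differed between arrays of the same strain and treatment more than most genes did. The intensity of Slc17a7 (1428986_at) ranged from 181 to 1457 over the 36 arrays, an 8.05-fold span. Tbr1 (1416711_at) spanned 8.88-fold and Prdm8 (1455925_at) 8.29-fold, Neurod6 (1418047_at) 5.89-fold, Nrn1 (1428393_at) 3.35-fold, Nptx1 (1434877_at) 2.98-fold and Neurod2 (1418995_at) 2.87-fold. Slc30a3 (1460654_at), the narrowest of the 9 genes, spanned 1.67-fold. Within groups, the SD of log2 intensity was 0.65 for Neurod6, at the 99.5th percentile of all detected probe sets, 0.65 for Slc17a7 (99.4th), 0.54 for Prdm8 (98.7th), 0.52 for Tbr1 (98.6th) and 0.41 for Nrn1 (96.4th). It was 0.15 for Slc30a3, at the 29.7th percentile. The median SD over the 13 detected marker probe sets was 0.33, against 0.19 over all detected probe sets.

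In 129P3/J, Slc17a7 had intensities of 1029, 1294 and 1457 on chronic arrays 1, 2 and 3, of 542, 1138 and 1066 on acute arrays and of 365, 1073 and 998 on saline arrays. In C57BL/6J it had 432, 807 and 846 on chronic, 443, 719 and 593 on acute and 181, 183 and 789 on saline arrays. Number 1 was the lowest array of each of these 6 groups, and the chronic and saline arrays overlapped in both strains. In DBA/2J the values were 410, 853 and 553 on chronic, 386, 447 and 410 on acute and 243, 502 and 502 on saline arrays. In SWR/J they were 481, 997 and 801 on chronic, 473, 1171 and 578 on acute and 280, 548 and 744 on saline arrays. The array of number 1 was the lowest in 12 of 12 groups for this gene.

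**Figure D1:**
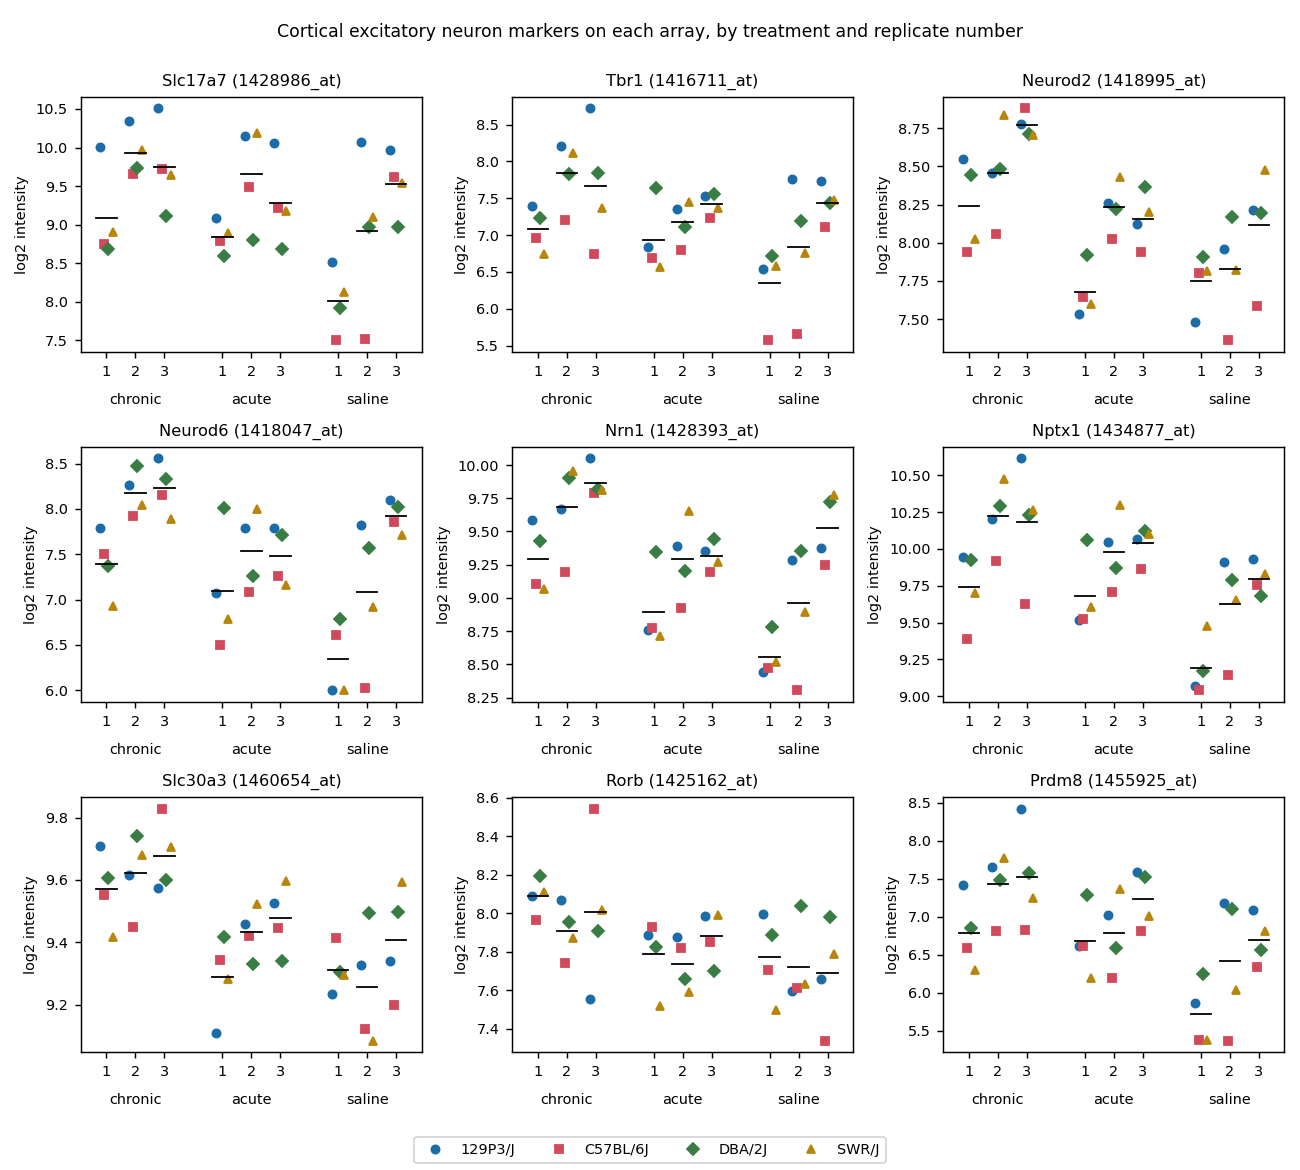
Log2 intensity of each of the 9 genes (by the brightest of its detected probe sets) on the 36 arrays, by treatment and replicate number, with a symbol for each strain and a bar at the mean of the 4 strains. For Slc17a7 the bars of number 1 lie at 9.09, 8.84 and 8.02 in chronic, acute and saline arrays, below those of numbers 2 and 3 in each treatment.

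Most of the other markers had their low values on the same arrays. Number 1 was the lowest array of its group in 11 of 12 groups for Nptx1, in 10 of 12 for Tbr1, Neurod2, Neurod6 and Nrn1 and in 9 of 12 for Prdm8. For Slc30a3 it was the lowest in 6 of 12 groups and for Rorb (1425162_at) in 3 of 12. The order was counted for the markers only, so no share of all probe sets is given. The labels do not say what the replicate number stands for. The mean log2 intensity of Neurod6 over the 4 strains was 7.40 ± 0.36 (SD, n = 4), 8.17 ± 0.25 and 8.23 ± 0.28 on chronic arrays of numbers 1, 2 and 3. On acute arrays it was 7.09 ± 0.65, 7.54 ± 0.43 and 7.48 ± 0.32, and on saline arrays 6.35 ± 0.41, 7.08 ± 0.80 and 7.92 ± 0.17. Saline arrays of number 1 held the lowest of these 9 set means, at a mean intensity of 83.9, and saline arrays of number 3 lay at 244. For Nrn1 the means were 9.29, 9.68 and 9.87 on chronic, 8.90, 9.29 and 9.31 on acute and 8.55, 8.96 and 9.53 on saline arrays. An F-test of the replicate number within treatment, adjusted over all detected probe sets at an FDR of 1%, called 4 of 13 marker probe sets, those of Slc17a7 (adjusted p = 0.0026), Nrn1 (0.0034), Neurod6 (0.0058) and Nptx1 1434877_at (0.0069), where 3.74% of all detected probe sets were called. This count was 6 without C57BL/6J saline replicate 1, 1 without SWR/J saline replicate 3 and 2 without any 1 of 8 other arrays, 129P3/J saline replicates 1 and 3, 129P3/J acute replicate 2, C57BL/6J saline replicate 3, DBA/2J saline replicates 1 and 3, DBA/2J chronic replicate 1 and SWR/J chronic replicate 1.

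By the brightest detected probe set of each gene, all genes but Rorb varied together. Over the 36 arrays, the deviations of log2 intensity from the group means correlated at r = 0.94 (rho = 0.95) for Neurod6 with Nrn1, at 0.92 for Tbr1 with Nptx1, at 0.91 for Slc17a7 with Neurod6 and at 0.90 for Nptx1 with Prdm8. Among the 8 genes other than Rorb, the 28 pairs had r between 0.35 and 0.94, with a mean of 0.74, and 23 of them exceeded 0.5. The lowest of these pairs were those of Slc30a3 with Tbr1 (0.35), Slc17a7 (0.41) and Nptx1 (0.41). Rorb stood apart, with r between -0.42 (Tbr1) and 0.43 (Slc30a3) to the others, and over all 9 genes the 36 pairs had a mean r of 0.54. These are descriptions: arrays of the same treatment and number shared deviations across all detected probe sets, with a mean r of 0.26 over 54 pairs of arrays from different strains, and are not independent points.

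**Figure D2:**
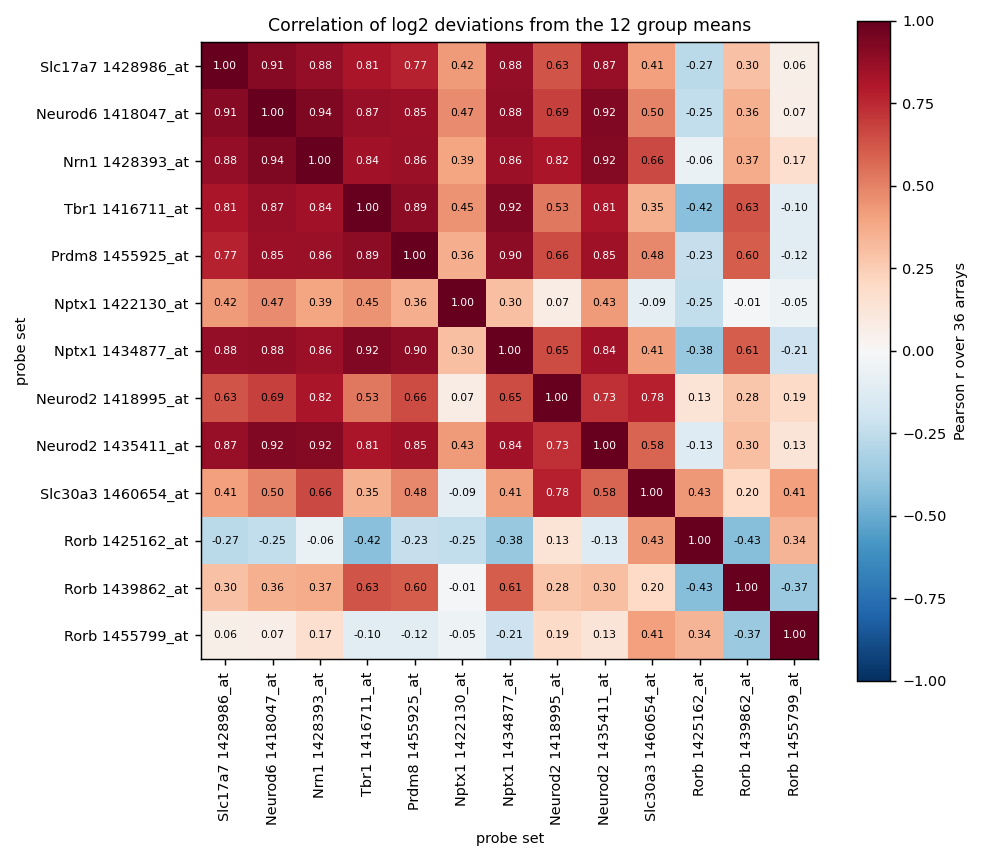
Pearson r, over 36 arrays, between the deviations of log2 intensity from the 12 group means for the 13 detected marker probe sets. The block of Slc17a7, Neurod6, Nrn1, Tbr1 and Prdm8 has r between 0.77 and 0.94, while the 3 Rorb probe sets have r of -0.43 to 0.34 with each other.

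Probe sets of the same gene did not always move together. The 2 detected Neurod2 probe sets correlated at r = 0.73, but 1422130_at and 1434877_at of Nptx1 at 0.30 only. Nptx1 1422130_at had its highest r, 0.47, with Neurod6, and had 0.07 with Neurod2 1418995_at and -0.09 with Slc30a3. The 3 Rorb probe sets gave r = 0.34 for 1425162_at with 1455799_at, -0.37 for 1439862_at with 1455799_at and -0.43 for 1425162_at with 1439862_at. Rorb 1439862_at was the one of these with an r over 0.5 to other markers, at 0.63 with Tbr1, 0.61 with Nptx1 1434877_at and 0.60 with Prdm8. The files do not give which transcripts of these genes each probe set detects.

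To place the markers among all genes, an index was formed as the mean of their standardized deviations on each array, and 13215 other genes were ranked by r to it. The index of the number 1 array was the lowest in 10 of 12 groups. It was below 0 on 11 of 12 number 1 arrays, against 5 of 24 arrays of numbers 2 and 3. These signs largely follow from the order, since the deviations of a group sum to 0. The index was lowest on 129P3/J saline replicate 1 (-1.39 SD) and SWR/J acute replicate 1 (-1.34 SD), and highest on SWR/J saline replicate 3 (1.45 SD). The genes most like the index were Vxn (r = 0.92), Cck (0.92, cholecystokinin, a neuropeptide abundant in cortex), Stx1a (0.90, a syntaxin of synaptic vesicle fusion), Rtn4r (0.89, the Nogo receptor), Rap1gap2 (0.89), Car10 (0.88), Ipcef1 (0.88), C1ql3 (0.88), Olfm1 (0.87) and Cadps2 (0.87). The markers themselves, which are parts of the index, had r of 0.98 (Nrn1) to 0.72 (Slc30a3), and -0.01 for Rorb. At the other end stood Zcchc12 (-0.78), Vat1l (-0.77), Zic1 (-0.76), Cacna2d2 (-0.76) and Isl1 (-0.76), of which Zic1 and Isl1 encode transcription factors of the ventral forebrain. In all, 106 genes had r above 0.7 and 17 below -0.7. When Slc17a7 alone served as the index, 9 of the 10 most like genes were among its 50 most like genes, and 2 among its 10. Slc17a7 is itself a part of the index, so this overlap is partly built in and is no independent check.

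Other genes of cortical excitatory neurons followed the index to unequal degrees. Of 17 listed, 12 were detected, with a median r to the index of 0.51, and their mean log2 intensity correlated with the index at r = 0.83 (rho = 0.84), and at 0.82 without the 2 arrays farthest from the median. Sv2b, a synaptic vesicle protein, had r = 0.85, Mef2c 0.79, Dkk3 0.79, Emx1 0.74, Nr4a2 0.69 and Zbtb18 0.61. The other 6 lay at 0.41 (Neurod1), 0.39 (Cux2), 0.38 (Kcnv1), 0.31 (Lamp5), 0.17 (Lhx2) and -0.42 (Tle4). For the 17 medium spiny neuron genes the mean of the list had r = -0.52, but single genes were mostly weakly related, with a median r of -0.22, from -0.76 (Isl1) and -0.67 (Gpr6) to 0.05 (Ptpn5) and 0.09 (Rasd2). The mean of the list of 6 pan-neuronal genes had r = 0.45, of 8 astrocyte genes 0.53, of 4 endothelial genes 0.40, of 7 microglia genes 0.33, of 7 striatal interneuron genes 0.31 and of 4 thalamus genes 0.27. For 8 oligodendrocyte genes it was 0.01, for 3 choroid plexus genes 0.00 and for 8 immediate early genes -0.32. Among array measures, the hybridization controls had r = 0.27, the poly-A controls -0.29, the 3′ minus 5′ difference of Gapdh 0.10 and the array median -0.19. By rank, the Gapdh difference had rho = 0.37. The part of cell composition, dissection or these measures in the spread of the markers was not tested.

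**Figure D3:**
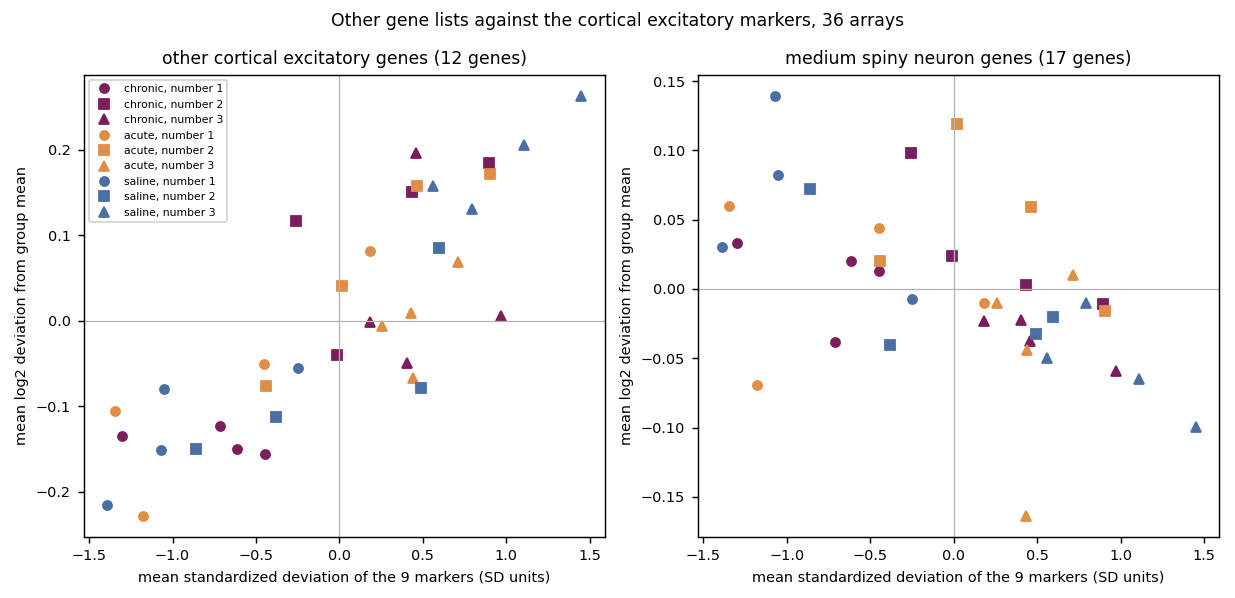
Mean log2 deviation from the group mean of 12 other cortical excitatory genes and of 17 medium spiny neuron genes (vertical axes) against the mean standardized deviation of the 9 markers (horizontal axes, SD units), for 36 arrays, coloured by treatment and with a symbol for each replicate number. The mean of the cortical genes has r = 0.83 to the markers and that of the medium spiny neuron genes r = -0.52.

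Chronic morphine was set against saline over the 4 strains, 12 arrays against 12. Of the 13 marker probe sets, 7, of 6 genes, were higher after chronic morphine at an adjusted p under 0.05 and none was lower, where 1.36% of all detected probe sets were higher. The median difference was 0.57 log2 units over the 13 probe sets and 0.0001 over all detected ones, and 12 of 13 were above 0. These calls did not remain when the arrays of a treatment and number were taken as a random block. Of 13 marker probe sets 0 were then higher, where 0.11% of all were. The block allows for shared deviations by a single correlation for all probe sets, 0.24, so it can allow too little for markers that share more. When the arrays of number 1 were left out of every group alike, which left 24 arrays, 0 of 13 were called in limma, while the differences were 0.91 for Prdm8 (adjusted p = 0.084), 0.64 for Neurod2 (0.063), 0.49 for Nptx1 (0.071) and 0.32 for Slc30a3 (0.096). The share of all probe sets called in that fit is not given here. With 2 arrays per group precision is lower for every probe set, so this 0 does not single out the markers. With a single array left out instead, the count was 4 without C57BL/6J saline replicate 2, C57BL/6J chronic replicate 3, DBA/2J saline replicate 1, SWR/J saline replicate 1 or SWR/J chronic replicate 3.

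The signal of Prdm8 was low, over the level of 6.64 log2 units on 10 of 12 chronic, 7 of 12 acute and 4 of 12 saline arrays, and its mean on saline arrays, 6.28, lay under it. It had intensities of 172, 201 and 343 on chronic, 97.8, 130 and 193 on acute and 58.1, 145 and 136 on saline arrays of 129P3/J, and of 95.9, 113 and 113 on chronic, 97.8, 72.9 and 112 on acute and 41.7, 41.4 and 80.7 on saline arrays of C57BL/6J. In both strains all chronic arrays lay above all saline arrays. In DBA/2J it had 116, 179 and 191 on chronic, 157, 96.0 and 183 on acute and 75.8, 137 and 94.2 on saline arrays, and in SWR/J 79.0, 218 and 151 on chronic, 73.0, 165 and 129 on acute and 41.7, 65.4 and 112 on saline arrays. In these strains the chronic and saline arrays overlapped. Separation of arrays in this way was examined for the marker probe sets only, here and below, so no share of all probe sets is given. Arrays of the same treatment and number shared deviations, so the strains are not independent repeats of it. Over the 4 strains Prdm8 was 0.97 ± 0.21 (SE) log2 units higher after chronic morphine than after saline (adjusted p = 0.0067, and 0.10 with the random block). The size of this difference rests on saline values that are not clearly above background.

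Slc30a3 had the smallest spread of the 9 genes and a difference of smaller size. Its 12 chronic arrays had intensities from 684 to 910, with a median of 783, its 12 acute arrays from 552 to 774, with a median of 684, and its 12 saline arrays from 543 to 772, with a median of 637. In 129P3/J it had 837, 785 and 762 on chronic, 552, 703 and 738 on acute and 602, 642 and 648 on saline arrays. All chronic arrays lay above all saline arrays in 3 of 4 strains, the exception being SWR/J. As for Prdm8, this was not set against all probe sets. The difference was 0.30 ± 0.06 log2 units, 1.23-fold (adjusted p = 0.0053, and 0.13 with the random block).

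Neurod2 (1418995_at) had intensities of 245 to 471 on chronic arrays (median 366), of 185 to 345 on acute arrays (median 269) and of 164 to 356 on saline arrays (median 234). In 3 of 4 strains all chronic arrays lay above all saline arrays. It was 0.59 ± 0.13 log2 units higher after chronic morphine (adjusted p = 0.0074, and 0.098 with the random block), and its other detected probe set, 1435411_at, 0.57 ± 0.15 higher (adjusted p = 0.026, and 0.20 with the random block). Nptx1 (1434877_at) had 671 to 1568 on chronic, 732 to 1260 on acute and 526 to 975 on saline arrays, and was 0.51 ± 0.12 log2 units higher (adjusted p = 0.014, and 0.13 with the random block). The other Nptx1 probe set, 1422130_at, differed by 0.19 ± 0.11 and did not pass (adjusted p = 0.32). Nrn1 had 537 to 1060 on chronic, 419 to 806 on acute and 316 to 874 on saline arrays, with a difference of 0.60 ± 0.16 log2 units (adjusted p = 0.028, and 0.17 with the random block). Its adjusted p passed 0.05 in 30 of the 36 fits that left out a single array, and lay between 0.055 and 0.064 without 129P3/J saline replicate 1 or any of the 5 arrays named for the count of 4. Rorb 1425162_at was 0.27 ± 0.08 log2 units higher (adjusted p = 0.047, and 0.38 with the random block), and passed in 10 of those 36 fits. Rorb 1439862_at and 1455799_at differed by -0.10 ± 0.11 and 0.18 ± 0.12 and did not pass.

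Slc17a7, Neurod6 and Tbr1 did not pass. Slc17a7 was measured at 410 to 1457 on chronic arrays (median 827), 386 to 1171 on acute arrays (median 560) and 181 to 1073 on saline arrays (median 502), and its difference between chronic morphine and saline was 0.77 ± 0.25 log2 units (adjusted p = 0.067). For Neurod6 it was 0.82 ± 0.25 (adjusted p = 0.054) and for Tbr1 0.65 ± 0.20 (adjusted p = 0.052). For none of these 3 genes did the chronic and saline arrays separate in any strain, although the mean difference was positive in all 4 strains for each. Without the arrays of number 1 in every group the differences were 0.62 for Slc17a7, 0.70 for Neurod6 and 0.61 for Tbr1. All 3 genes passed without C57BL/6J saline replicate 3 or without SWR/J saline replicate 3. Tbr1 and Neurod6 passed also without 129P3/J saline replicate 3, DBA/2J saline replicate 3 or SWR/J chronic replicate 1, Tbr1 without 129P3/J chronic replicate 1 and Neurod6 without C57BL/6J chronic replicate 2.

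**Figure D4:**
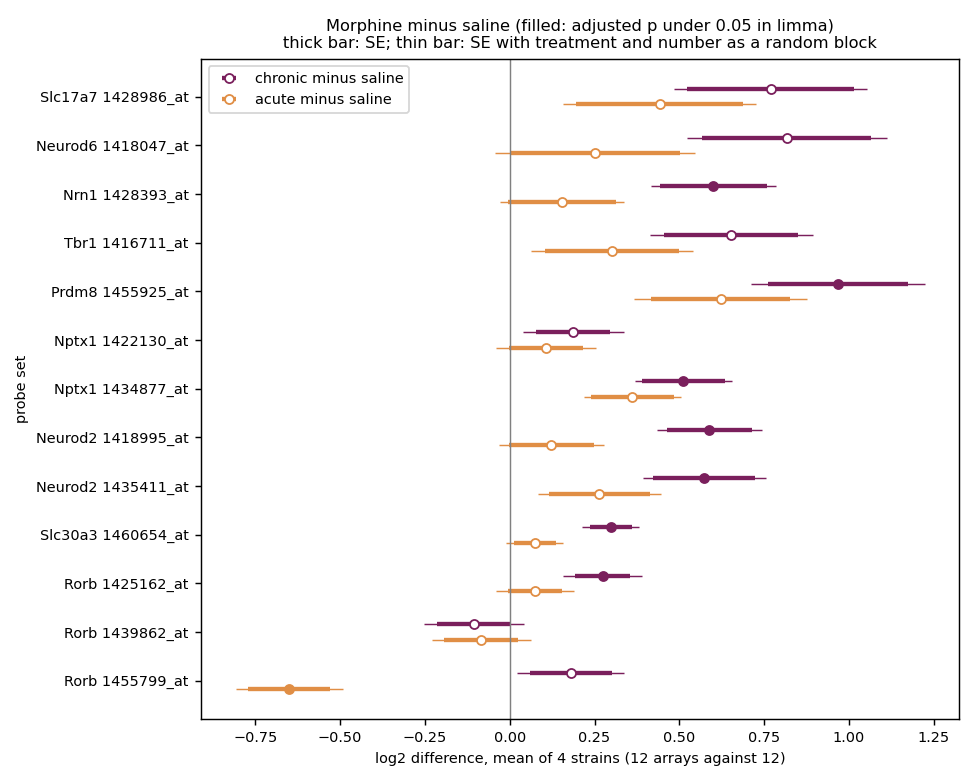
Log2 difference, chronic minus saline and acute minus saline, over the 4 strains (12 arrays against 12) for the 13 detected marker probe sets, with the SE of the limma fit (thick bars) and of the random block fit (thin bars). Chronic differences run from -0.10 to 0.97, with 7 filled points, and the only filled acute point is Rorb 1455799_at at -0.65.

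Of the 12 other cortical excitatory genes, none was higher after chronic morphine and 1 was lower, Tle4 (-0.32 log2 units, adjusted p = 0.0033, and 0.082 with the random block), and their median difference was 0.10. Among the medium spiny neuron genes, 5 of 17 were lower, where 3.37% of all detected probe sets were, and none higher, Drd2 (-0.27), Isl1 (-0.32), Rgs9 (-0.18), Bcl11b (-0.22) and Pde1b (-0.15), and 0 remained called with the random block, where 0.22% of all were lower. The mean log2 level of that list was 10.78 on chronic, 10.82 on acute and 10.91 on saline arrays. For the 9 markers the same mean was 8.67 on chronic, 8.33 on acute and 8.07 on saline arrays, with ranges of 8.13 to 9.20, 7.91 to 8.72 and 7.35 to 8.60 that overlapped. Among the oligodendrocyte genes 4 of 8 were lower, among them Ugt8a (-0.60, an enzyme of myelin lipid synthesis), the 1 call of the list that remained with the random block. Among the astrocyte genes 2 of 8 were lower and 1 was higher, and among the endothelial genes 1 of 4 was lower. Of the immediate early genes 1 of 8 was higher, where 1.36% of all detected probe sets were. In these last 3 lists 0 calls remained with the random block. The part of these lists in the marker differences was not tested.

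Acute morphine raised none of the markers past the threshold. Of 13 probe sets 0 were higher in the limma fit, where 2.59% of all detected probe sets were, and 2, of Nptx1 (1434877_at) and Prdm8, had an unadjusted p under 0.05 with a positive difference, as did 10.4% of all. The differences were 0.62 ± 0.21 log2 units for Prdm8 (adjusted p = 0.078), 0.44 ± 0.25 for Slc17a7 (0.33), 0.36 ± 0.12 for Nptx1 1434877_at (0.083), 0.30 ± 0.20 for Tbr1 (0.43) and 0.25 ± 0.25 for Neurod6 (0.64). Nptx1 1434877_at passed without C57BL/6J saline replicate 3 (adjusted p = 0.047), and it and Prdm8 passed without DBA/2J saline replicate 2 (0.049 and 0.043). The median over the 13 probe sets was 0.15, against 0.01 over all detected ones. These differences share the saline arrays with those after chronic morphine.

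The single marker probe set that changed after acute morphine was lower, where 2.11% of all were lower. Rorb 1455799_at had intensities of 211, 242 and 174 on chronic, 84.7, 107 and 70.1 on acute and 253, 204 and 265 on saline arrays of DBA/2J. All acute arrays of this strain lay below all others, and 2 of them lay under the detection level, the only arrays on which this probe set did. In SWR/J it had 282, 193 and 199 on chronic, 152, 133 and 151 on acute and 237, 174 and 307 on saline arrays, where the acute arrays were again the lowest. In 129P3/J it had 287, 187 and 220 on chronic, 146, 155 and 155 on acute and 154, 171 and 187 on saline arrays, and in C57BL/6J 279, 143 and 338 on chronic, 140, 136 and 118 on acute and 177, 119 and 191 on saline arrays. In these 2 strains acute and saline arrays overlapped. Over the 4 strains the difference, acute minus saline, was -0.65 ± 0.12 log2 units (adjusted p = 0.0018, and 0.048 with the random block, where 0.143% of all detected probe sets were lower). The other Rorb probe sets differed by 0.07 ± 0.08 (1425162_at) and -0.08 ± 0.11 (1439862_at) and did not pass.

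Between chronic and acute morphine, 4 of 13 marker probe sets were higher and none lower, where 8.87% of all detected probe sets were higher. They were Rorb 1455799_at (0.83 ± 0.12 log2 units, adjusted p = 0.00016), Neurod2 1418995_at (0.47 ± 0.13, 0.0095), Slc30a3 (0.22 ± 0.06, 0.0099) and Nrn1 (0.45 ± 0.16, 0.042). With the random block only Rorb 1455799_at remained (adjusted p = 0.0063), where 2.47% of all were higher. The F-test of morphine over the 3 treatments at an FDR of 1% called 5 of 13, against 8.71% of all, those of Neurod2 1418995_at, Nptx1 1434877_at, Slc30a3, Rorb 1455799_at and Prdm8, and with the random block 1 of 13, Rorb 1455799_at, against 0.478% of all. Without 129P3/J saline replicate 1 or DBA/2J saline replicate 1 the count was 3, and without C57BL/6J saline replicate 3 it was 8.

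Within strains, 3 arrays against 3, the 12 contrasts gave 2 calls among the markers, where 0.38% of all tests were calls. Both were of Rorb 1455799_at in DBA/2J, which differed by -1.47 ± 0.24 log2 units after acute morphine relative to saline (adjusted p = 0.0061) and was 1.27 ± 0.24 higher after chronic than after acute morphine (adjusted p = 0.021). In each of these 2 comparisons 0.301% of all detected probe sets changed in that direction. The acute mean behind both calls rests in part on the 2 arrays under the detection level. Neither call remained without DBA/2J acute replicate 1 or without DBA/2J acute replicate 3. The count was 1 without DBA/2J saline replicate 1, DBA/2J chronic replicate 1 or DBA/2J chronic replicate 3, 4 without C57BL/6J saline replicate 3 and 6 without C57BL/6J chronic replicate 2. The interaction of strain and morphine called 0 of 13, and 0.0% of all detected probe sets, and its adjusted p for Rorb 1455799_at was 0.92 (unadjusted p = 0.012), so a difference in response between strains was not shown.

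The strains were compared with their common mean over all treatments, 9 arrays each. C57BL/6J had the lowest mean of the 4 strains for Tbr1, Prdm8, Nptx1, Nrn1, Neurod2, Neurod6 and Slc30a3. The mean log2 intensity was close to that of SWR/J for Neurod6 (7.21 and 7.27) and to that of 129P3/J for Slc30a3 (9.42 and 9.43). In C57BL/6J 4 of 13 marker probe sets were lower than the mean, where 4.69% of all were, those of Tbr1 (-0.53 ± 0.14 log2 units, adjusted p = 0.010), Prdm8 (-0.48 ± 0.15, 0.027) and both Nptx1 probe sets (-0.28 ± 0.09, 0.033, and -0.25 ± 0.08, 0.033). Prdm8 had intensities of 41.4 to 113 in C57BL/6J, against 75.8 to 191 in DBA/2J, 41.7 to 218 in SWR/J and 58.1 to 343 in 129P3/J, so the strains overlapped. With the random block 6 were lower, where 7.13% of all were, Neurod2 1418995_at and Nrn1 besides these 4. Over all 4 strains, 5 calls were made against the common mean, 3 without C57BL/6J saline replicate 1 or acute replicate 1, and 2 without C57BL/6J saline replicate 2, acute replicate 2 or chronic replicate 1.

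Slc17a7 had its highest mean in 129P3/J, with intensities of 365 to 1457 (median 1066), against 243 to 853 in DBA/2J (median 447), 280 to 1171 in SWR/J (median 578) and 181 to 846 in C57BL/6J (median 593). It was 0.63 ± 0.17 log2 units above the mean of the strains (adjusted p = 0.016) and was called higher there as 1 of 13 marker probe sets, where 4.6% of all were. With the random block Tbr1 (0.37 ± 0.11, adjusted p = 0.026) and Prdm8 (0.40 ± 0.12, 0.025) were higher too, 3 of 13, where 6.48% of all were. No marker was called in DBA/2J or SWR/J. The F-test of strain at an FDR of 1% called 0 of 13, against 13.2% of all detected probe sets, with the lowest adjusted p for Tbr1 (0.020), Prdm8 (0.029) and Slc17a7 (0.030), and with the random block 3 of 13, the same 3 genes, against 17.9% of all. The count at 1% was 3 without 129P3/J saline replicate 1, 2 without C57BL/6J saline replicate 3 and 1 without 129P3/J chronic replicate 1 or SWR/J saline replicate 1. Slc30a3 and Rorb 1425162_at differed from the common mean by -0.03 to 0.03 and by -0.06 to 0.06 log2 units over the strains.

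**Figure D5:**
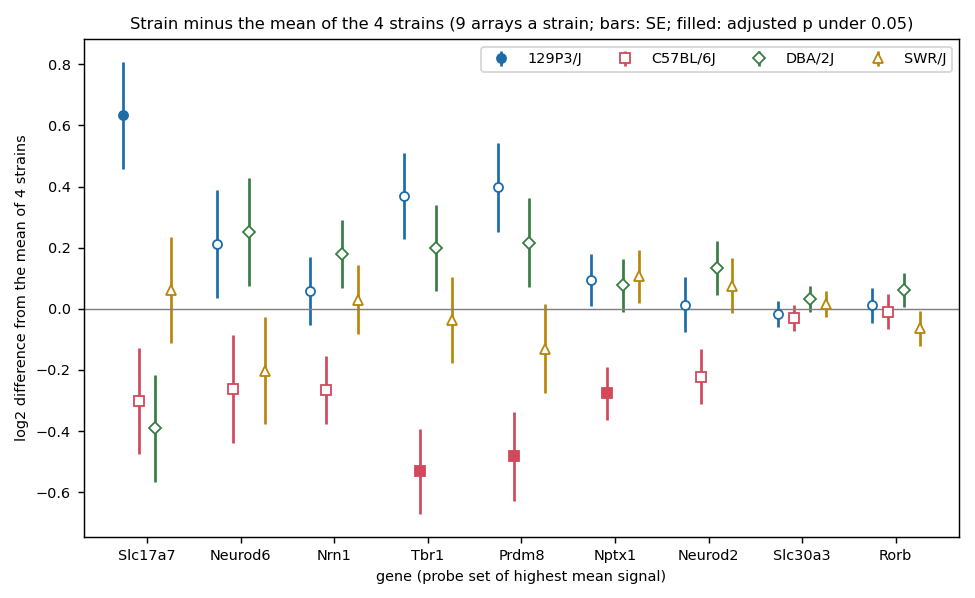
Log2 difference of each strain from the mean of the 4 strains, over all treatments (9 arrays a strain, bars are SE), for the 9 genes. Slc17a7 in 129P3/J lies at 0.63 and Tbr1, Prdm8 and Nptx1 in C57BL/6J at -0.53, -0.48 and -0.28, and only these 4 points are filled.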

How the data were processed

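Striatal RNA of 4 mouse strains after chronic morphine, acute morphine or saline was measured on 36 Affymetrix arrays, each from a pool of 3 animals. The authors scanned the arrays and deposited a linear signal intensity for each probe set. Their methods name dChip, RMAExpress and PerfectMatch, each with quantile normalization, but the deposited table does not name its method. Its linear scale and its common lowest value are like those of the model-based index of dChip, which was not tested, and values of the other programs were not analysed here. Quantile normalization sets arrays to the same distribution, so values are relative within an array.

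Log2 of the intensity was taken without a pseudocount. Probe sets over log2 6.64 on at least 9 arrays were kept, the intensity part of the methods' criterion, since present calls were not used here. Means of the 12 groups were fitted in limma 3.58.1 (R 4.3.3) and moderated by empirical Bayes, and p-values were adjusted by Benjamini-Hochberg over all 27212 probe sets, at 0.01 for F-tests of main effects and 0.05 for contrasts. A random block for treatment and number used duplicateCorrelation with statmod 1.5.0 (consensus correlation 0.24). Samples of the same strain and number did not on average deviate together across treatments (mean r 0.03, from -0.45 to 0.48, 14 of 36 pairs above 0.1). The main fit therefore did not pair samples by number, though a pairing was not excluded. Where a gene has several detected probe sets, the brightest stands for it.

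Probe sets were matched by symbol and Entrez identifier. The markers and the comparison lists were chosen with earlier results of these data known. Named genes are all markers, the 10 most and 5 least like their index and up to 4 leading members of a list. Further list members were named after their values were seen. The fit was tested on simulated data with independent noise on each array. That test does not cover what deviations shared by arrays of a treatment and number do to the treatment calls. Alternatives changed the filter, the pseudocount, the normalization, the block, the moderation, array weights, the probe set choice and the arrays included, and their effect is given in the closing section. Motifs and figures used Python 3.11.15, pandas 2.3.3, numpy 2.4.6 and matplotlib 3.10.9.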

Additional observations from a re-analysis of the deposited data

Results flagged for a closer look

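In 52 sets of the 9 arrays of a strain, 3 arrays of marker probe sets stood apart by Dixon's criterion at 95%, which chance meets in about 1 in 20 sets. Neurod2 1418995_at was at 8.88 log2 units on C57BL/6J chronic replicate 3, with the next highest C57BL/6J array at 8.06. Nptx1 1422130_at was at 7.96 on C57BL/6J saline replicate 2, with the next lowest at 8.56, and at 8.35 on SWR/J saline replicate 1, with the next lowest at 8.93. No marker met the threshold for a strain-dependent morphine response.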

How the results depend on the processing

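The random replicate block gave 0 for chronic morphine against saline (reported 7), 1 for chronic against acute morphine (4), 1 for the morphine effect (5), 3 for the strain effect (0) and 9 for strains against their mean (5). A fixed replicate block, with the numbers as if shared over all groups, gave 10 for the morphine effect, 3 for acute morphine against saline (reported 1), 4 for the strain effect, 5 for the within-strain contrasts (reported 2) and 10 for strains against their mean. Array weights gave 3, 1, 6 and 9 for acute morphine, strain, within-strain contrasts and strains against their mean. For strains against their mean, no filter and median centring gave 3 each. For the replicate number within treatment (reported 4), no filter gave 1, trend and robust moderation 7 and no moderation 2. Leaving out the arrays of number 1 in every group, a choice made after seeing the data that leaves 2 arrays per group, gave 0 for chronic morphine against saline, acute morphine against saline, chronic against acute morphine, the morphine effect and the within-strain contrasts, and no difference of the 9 genes changed direction. With the mean of all its detected probe sets, Rorb differed by -0.22 after acute morphine (adjusted p = 0.018). Adding 16 before log2 and renewed quantile normalization kept every count within 1.5 times and every direction. All counts of this paragraph are of marker probe sets. Shares of all detected probe sets are given above for the random block only. Under the other settings the counts were not set against all probe sets and do not single out the markers.

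With each array left out in turn, the counts ranged from 4 to 10 for chronic morphine against saline, 1 to 3 for acute morphine against saline, 3 to 5 for chronic against acute morphine, 3 to 8 for the morphine effect, 0 to 3 for the strain effect, 0 to 0 for the interaction, 1 to 6 for the replicate number, 0 to 6 for the within-strain contrasts and 2 to 7 for strains against their mean, and the mean r between markers from 0.51 to 0.58. Calls among all detected probe sets moved too. They ranged from 714 to 2790 for chronic morphine against saline, 687 to 2279 for acute morphine and 4741 to 7902 for chronic against acute. For the morphine effect they ranged from 1542 to 3678, for strain from 3345 to 3609 and for the replicate number from 442 to 1995. For the within-strain contrasts they ranged from 515 to 5328 and for strains against their mean from 9651 to 10657. The count of 4 for chronic morphine came without C57BL/6J saline replicate 2, C57BL/6J chronic replicate 3, DBA/2J saline replicate 1, SWR/J saline replicate 1 or SWR/J chronic replicate 3. Causes were not tested. Prdm8, Tbr1, Neurod6 and Rorb 1455799_at lay under the detection level on some arrays, where signal over background limits their precision.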
